A study of Mus musculus with 6 samples.

Results

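Glypicans and syndecans are the main families of cell-surface heparan sulfate proteoglycans. The members here were the 6 glypican genes (Gpc1 to Gpc6) and the 4 syndecan genes (Sdc1 to Sdc4), chosen by symbol: rows of the deposited count matrix whose Ensembl identifier carries one of these symbols in GENCODE M21. All 10 were found among the 55536 genes of the matrix, and 8 of them (4 glypicans and 4 syndecans) had enough counts to be tested among 15712 genes. The tissue was perichondrium, the connective tissue sheath around cartilage, microdissected at postnatal day 4 (P4) from the limb. In 3 libraries the genotype was Fbn1Scx-/-, a deletion of Fbn1 by Cre driven from the scleraxis gene (Scx), whose usual domain is tendon and ligament lineages, and the labels do not give the exons removed. The other 3 came from WT mice, for which the labels name neither a Cre nor a floxed allele. Libraries are named by genotype and the number in their titles, mut-596 or WT-596 for example, and values are listed throughout in the order mut-596, mut-597, mut-795, then WT-596, WT-597, WT-795. The knockout titles end unlike, in ScxCRE for mut-596 and in Koscx for mut-597 and mut-795, and what this difference means was not established. No source used here says what the numbers mean, and nothing states that each library was a separate animal, so p-values measure only the spread between these libraries. The comparison asked which of these co-receptor transcripts differed between knockout and wild-type perichondrium.

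Glypicans are held in the outer membrane by a lipid anchor and syndecans cross it with a short cytoplasmic tail. Both carry heparan sulfate, a sulfated sugar chain that binds FGF, hedgehog, WNT and BMP ligands and also binds fibrillin-1, the microfibril protein encoded by Fbn1. In the growing skeleton they are known as regulators of ligand range and reception. Loss of glypican-3 causes an overgrowth syndrome in humans and loss of glypican-6 a short-limb dysplasia.

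The 4 syndecans end in nearly the same coding sequence, which encodes the site where PDZ-domain partners such as syntenin (Sdcbp) and Cask bind. It is shown because it is the stretch shared by all 4 members. The last 60 coding bases before the stop codon in GENCODE M21 (GRCm38), 5′ to 3′, have the final 12 bases in capitals.
Sdc1: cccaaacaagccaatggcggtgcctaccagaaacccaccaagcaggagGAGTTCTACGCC
Sdc2: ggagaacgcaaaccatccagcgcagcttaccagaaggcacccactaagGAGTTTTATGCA
Sdc3: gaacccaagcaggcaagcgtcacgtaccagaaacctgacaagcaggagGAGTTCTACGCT
Sdc4: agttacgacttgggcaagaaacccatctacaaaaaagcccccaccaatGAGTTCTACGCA
Over the final 12 bases, each pair among Sdc1, Sdc3 and Sdc4 matched at 11, and Sdc2 matched the others at 9 or 10. Over all 60 bases the closest pair was Sdc1 and Sdc3, with 37 matches. The coding sequences differed in base composition, from 47.9% GC in Sdc2 to 64.0% GC in Sdc3, and this property recurs in the comparison between genotypes.

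Of the 6 glypican genes, 4 lie as neighbouring pairs: Gpc4 and Gpc3 on the minus strand of the X chromosome, 107173 bases apart with no annotated gene between them, and Gpc5 and Gpc6 on the plus strand of chromosome 14, 400135 bases apart with 1 non-coding gene between them. Within the chromosome 14 pair Gpc6 had at least 70 counts in each library and Gpc5 at most 3, and within the X pair Gpc3 was far more abundant than Gpc4. The 250 bases before the RefSeq start (GRCm38.p6) are printed for both X-linked genes and for the barely counted Gpc2 and Gpc5, with the GC-box letters GGGCGG, or CCGCCC on the other strand, in capitals. RefSeq windows matched 7 of the 10 members, and Gpc1, Gpc6 and Sdc2 had none. RefSeq and GENCODE M21 starts differ for some of these genes. By the GENCODE positions the windows of Gpc4 and Sdc4 lie inside the gene, and those of Gpc2 and Sdc1 partly so.
Gpc3, chrX:52613975-52614224, minus strand: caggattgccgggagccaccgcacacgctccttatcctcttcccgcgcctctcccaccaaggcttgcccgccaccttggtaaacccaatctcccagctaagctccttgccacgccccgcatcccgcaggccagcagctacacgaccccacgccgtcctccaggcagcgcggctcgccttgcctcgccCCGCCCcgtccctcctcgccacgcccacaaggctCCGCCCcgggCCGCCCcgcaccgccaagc
Gpc4, chrX:52164924-52165173, minus strand: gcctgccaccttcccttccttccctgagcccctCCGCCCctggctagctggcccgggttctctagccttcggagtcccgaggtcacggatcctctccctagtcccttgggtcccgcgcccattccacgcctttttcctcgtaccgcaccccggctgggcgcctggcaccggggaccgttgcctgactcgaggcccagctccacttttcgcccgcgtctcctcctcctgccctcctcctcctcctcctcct
Gpc2, chr5:138279938-138280187, minus strand: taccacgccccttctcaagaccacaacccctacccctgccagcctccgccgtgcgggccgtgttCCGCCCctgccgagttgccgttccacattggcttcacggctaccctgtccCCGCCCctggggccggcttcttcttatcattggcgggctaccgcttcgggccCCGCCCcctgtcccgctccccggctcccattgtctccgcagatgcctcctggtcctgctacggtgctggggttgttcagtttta
Gpc5, chr14:115091965-115092214, plus strand: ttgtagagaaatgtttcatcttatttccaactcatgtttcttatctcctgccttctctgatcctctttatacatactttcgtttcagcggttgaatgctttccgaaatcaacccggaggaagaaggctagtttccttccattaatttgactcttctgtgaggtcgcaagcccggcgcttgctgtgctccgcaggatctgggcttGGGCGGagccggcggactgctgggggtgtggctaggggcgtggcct
GGGCGG was present in all 7 windows and in 32.7% of 32851 mouse windows of this length. The Gpc3 window held 3 matches, as did that of Gpc2, and those of Gpc4 and Gpc5 held 1 each. TATAAA, searched on both strands, was found in the Gpc5 window alone among the 7 and in 12.4% of all windows. CpG counts were 25 for Gpc3, 18 for Gpc4, 19 for Gpc2 and 12 for Gpc5, all above the median of 6 over all windows.

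Levels of different genes are compared per length, as CPM (the count over the TMM-scaled library total) divided by kilobases of exon. In that unit 3 members led: Gpc3 (69.5 CPM per kb as a mean over the 6 libraries), Gpc1 (65.4 CPM per kb) and Sdc2 (56.9 CPM per kb). Gpc3 exceeded Gpc1 in 2 of 6 libraries, so these neighbours do not differ beyond their spread, and Gpc1 exceeded Sdc2 in 5. Sdc4 followed at 18.8 CPM per kb and Sdc1 at 13.4 CPM per kb, each above the next gene in all 6 libraries. Gpc4 (8.68 CPM per kb) lay above Sdc3 (7.18 CPM per kb) in 5 libraries, and Gpc6 was lowest of the tested members at 1.79 CPM per kb, below Sdc3 in all 6. Among all genes tested, mean log2 CPM placed Gpc1, Sdc2 and Gpc3 at percentiles 98.5, 97.1 and 96.8.

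**Figure D1:**
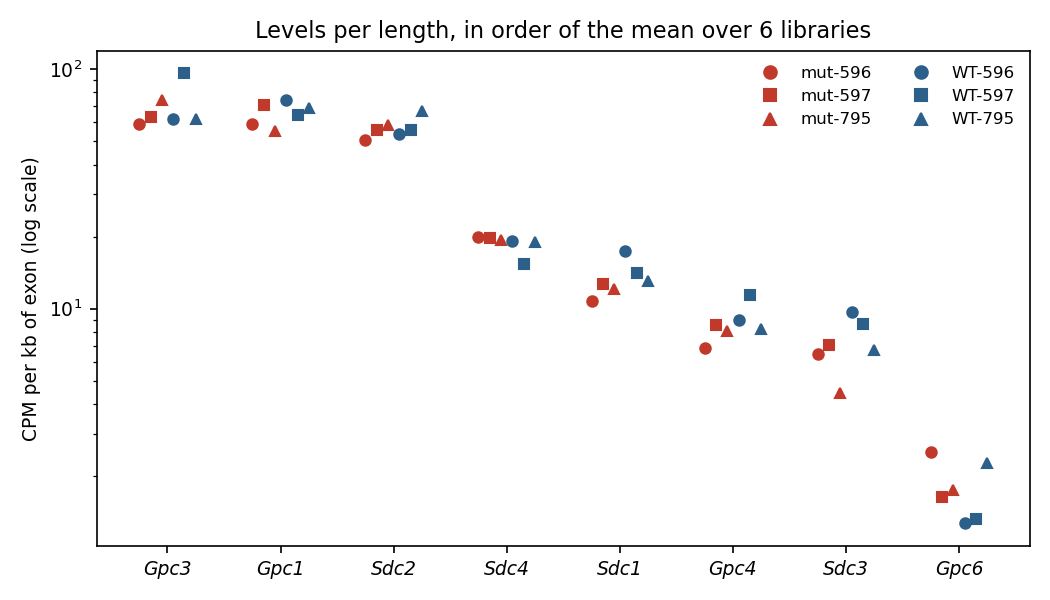
Levels of the 8 tested members in CPM per kb of exon on a log axis, 1 point per library, with knockout in red and wild type in blue. Gpc3, Gpc1 and Sdc2 form an upper tier between 50.8 and 96.3 CPM per kb, and Gpc6 lies lowest, between 1.27 and 2.53 CPM per kb.

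Gpc2 (ENSMUSG00000029510, chr5:138273655-138280005, minus strand) and Gpc5 (ENSMUSG00000022112, chr14:115092215-116525179, plus strand), both best known from the nervous system, were at the limit of detection. Gpc2 had 1, 3 and 0 counts in knockout, and the wild types had 0, 0 and 1. Gpc5 had 0 counts in all 3 knockout libraries and 0, 3 and 2 in the wild types. A count of 0 allows up to 3 counts, which is between 0.283 and 0.450 CPM in these libraries, so no difference between genotypes was detectable for either gene at this depth.

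No glypican or syndecan passed the test of knockout against wild type (edgeR quasi-likelihood test, Benjamini-Hochberg adjustment over 15712 genes), where 0.00636% of genes, Fbn1 alone, passed. DESeq2 called 0.0296% of its genes and also none of the members. None of the 8 had an unadjusted edgeR p under 0.05, against 10.5% of all genes (7.12% lower and 3.37% higher in knockout). The log2 fold changes, knockout over wild type, lay between -0.48 and 0.29, with 6 of 8 below 0 and a median of -0.16. Over all genes 49.1% lay below 0 and the median was 0.01. None of the 10 members is in the authors' deposited table of 1643 differential genes. The threshold behind that table was not established here, so it is not set beside the adjusted calls. DESeq2 here called 4 genes at an adjusted p under 0.05 and had 1640 at an unadjusted p under 0.05. In bulk tissue, fewer cells of a type and less RNA per cell cannot be told apart.

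Positions of genes are from GENCODE M21 (GRCm38) and cover the whole gene.

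**Figure D2:**
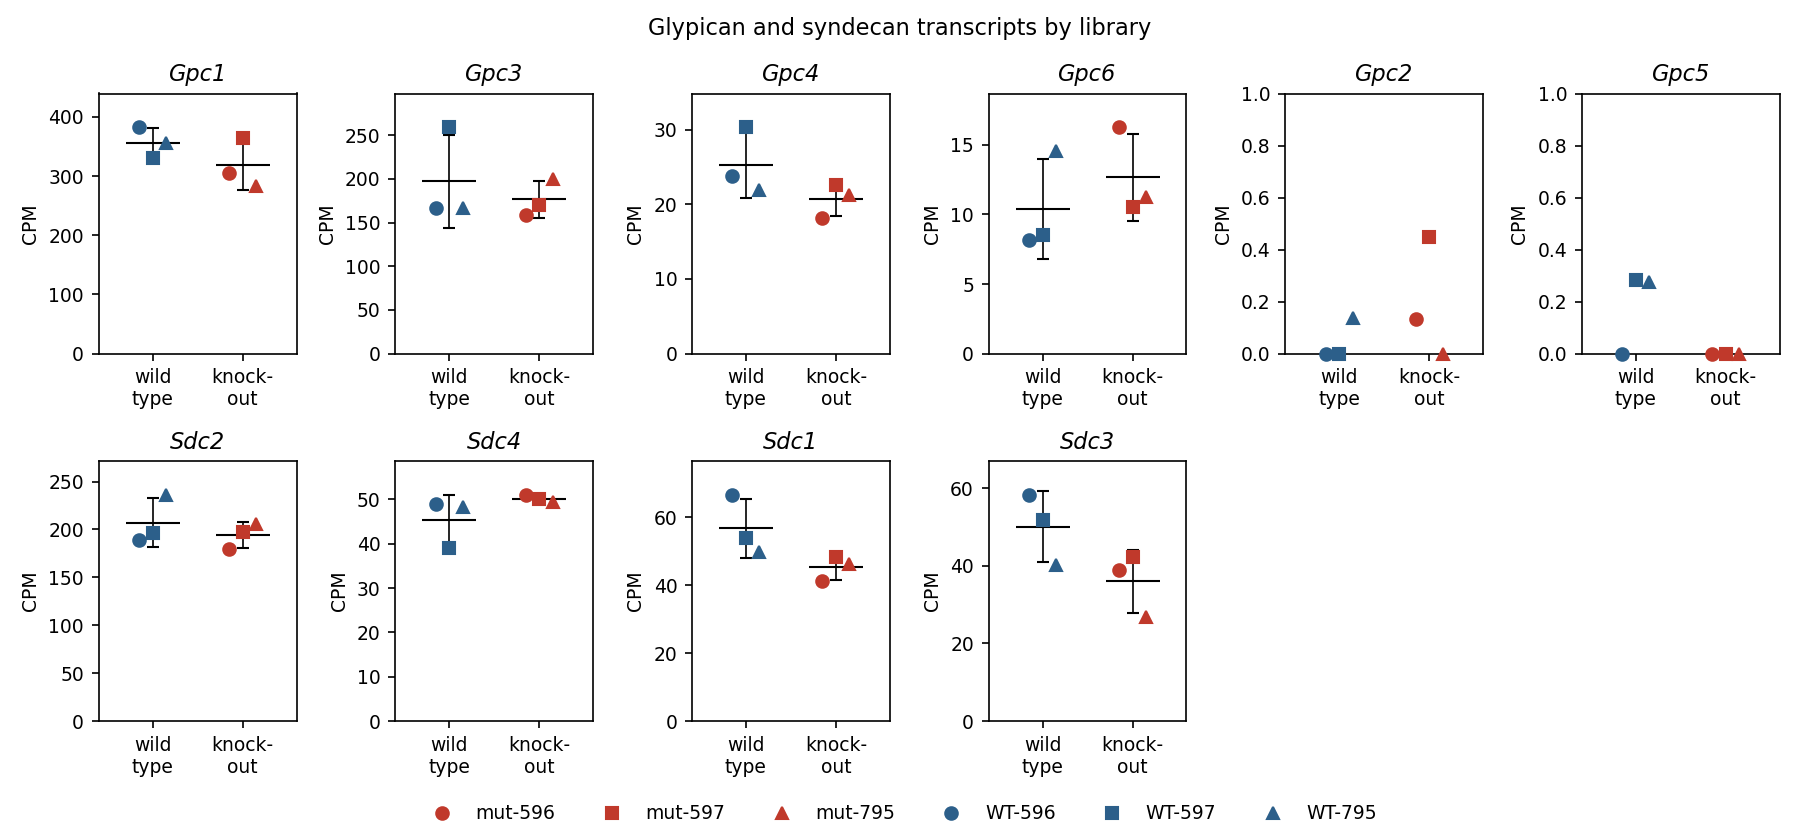
CPM of each member by library, with a horizontal line for the group mean and error bars for the SD (n = 3 per group), both left out for Gpc2 and Gpc5, and a separate linear axis from 0 in each panel. Only Sdc1 and Sdc4 have groups that do not overlap, and in both the nearest libraries are close.

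Gpc1 (ENSMUSG00000034220, chr1:92831645-92860779, plus strand), a glypican of many mesenchymal and muscle cells, stood at 306, 365 and 284 CPM in knockout. Its wild-type values were 382, 331 and 355 CPM. The knockout library mut-597 lay above WT-597 and WT-795, so the groups overlap. Knockouts averaged 318 ± 42.1 CPM and wild types 356 ± 25.5 CPM (SD, n = 3). The log2 fold change was -0.16 (SE 0.22, 95% interval -0.62 to 0.30, edgeR adjusted p = 0.739). Leaving out 1 library at a time gave values from -0.27 (without mut-597) to -0.097 (without mut-795). Of the exon bases of Gpc1, 18.9% are also exon of Ankmy1 on the opposite strand, a gene that itself carried 1820 to 2049 counts per library. The sources used here do not say that counting used strand, so reads from the shared part cannot be assigned, and Ankmy1 was at a log2 fold change of 0.13 (SE 0.24).

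Gpc3 (ENSMUSG00000055653, chrX:52272426-52613950, minus strand), which restrains hedgehog signalling by competing for the ligand, read 159, 170 and 200 CPM in knockout. The wild types read 167, 259 and 166 CPM. WT-597 stood above the 5 other libraries, and the other wild types lay inside the knockout range. The log2 fold change was -0.16 (SE 0.24, 95% interval -0.67 to 0.34, edgeR adjusted p = 0.766). With 1 library left out it ranged from -0.29 without WT-795 to 0.067 without WT-597. WT-597 was also the library with most skeletal muscle RNA: the 12 muscle markers summed to 11342 CPM there and to between 2452 and 5044 CPM in the 5 others, and with muscle markers as a covariate the Gpc3 value was 0.074. The 12 markers all lay below 0 in knockout (median -0.68), none past the test. After the GC correction 11 of 12 lay below 0 (median -0.39). Muscle was not the only content that set WT-597 apart. Erythroid markers summed to 34058 CPM there and 34965 CPM in mut-795, and to between 4634 and 11261 CPM in the others. Their part in the Gpc3 values was not tested.

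Gpc4 (ENSMUSG00000031119, chrX:52053021-52165252, minus strand), its X-linked neighbour, had 18.2, 22.6 and 21.3 CPM in the knockouts and 23.7, 30.3 and 21.9 CPM in the wild types. The groups overlap, at a log2 fold change of -0.29 (SE 0.23, 95% interval -0.77 to 0.19, edgeR adjusted p = 0.577), and with the muscle covariate it was -0.12. Single omissions gave -0.41 (without WT-795) to -0.16 (without WT-597). The X chromosome matters here because the libraries differed in sex: Xist, the RNA of the inactive X, reached 6221 counts in mut-596 and 4024 in mut-597, with at most 4 in any other library. Y-linked Ddx3y was at 0 in those knockouts and at 842 to 1641 counts in the rest. A covariate for these libraries, which leaves mut-795 against the wild types, gave 0.019 (SE 0.34) for Gpc3 and -0.25 (SE 0.34) for Gpc4. All wild types were of 1 sex by these genes, so this covariate and genotype can be told apart only through mut-795.

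Gpc6 (ENSMUSG00000058571, chr14:116925315-117976544, plus strand), the glypican tied to limb length, measured 16.2, 10.5 and 11.2 CPM in knockout. It measured 8.17, 8.49 and 14.5 CPM in wild type. WT-795 lay inside the knockout range and the other wild types below it. The log2 fold change was 0.29 (SE 0.29, 95% interval -0.34 to 0.92, edgeR adjusted p = 0.658), and it was 0.12 with the sex covariate and 0.036 with the muscle covariate. Omitting mut-596 gave 0.074, omitting WT-596 gave 0.15 and omitting WT-597 gave 0.16, while omitting WT-795 gave 0.58 (edgeR adjusted p = 0.177). The interval over all libraries was the widest among the tested members, at 70 to 123 counts per library, and its upper end is a fold change of 1.90.

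Sdc2 (ENSMUSG00000022261, chr15:32920723-33034935, plus strand), the leading syndecan of the sheath and typical of mesenchymal cells, gave 179, 197 and 206 CPM in knockout. Wild type gave 189, 197 and 236 CPM. The groups overlap, with a log2 fold change of -0.09 (SE 0.21, 95% interval -0.54 to 0.35, edgeR adjusted p = 0.849) and values from -0.16 to -0.016 with 1 library left out (without WT-596 and without WT-795). Sdc3 (ENSMUSG00000025743, chr4:130792537-130826319, plus strand), a syndecan described in developing cartilage and its sheath, stood at 38.8, 42.3 and 26.7 CPM for the knockouts and 58.2, 51.8 and 40.2 CPM for the wild types, with WT-795 inside the knockout range. Its log2 fold change was the farthest from 0 among the tested members, at -0.48 (SE 0.24, 95% interval -0.99 to 0.03, edgeR adjusted p = 0.475). With the sex covariate it was -0.91 (SE 0.34, edgeR adjusted p = 0.930), and without mut-795 it was -0.32 (edgeR adjusted p = 0.644). The antisense gene Gm26716 lies with all of its 415 exon bases inside Sdc3 exons. It carried 120 to 213 counts per library, beside 260 to 613 for Sdc3, and was at a log2 fold change of -0.06 (SE 0.26).

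Sdc1 and Sdc4 were the members with non-overlapping groups, 2 of 8 against 11.9% of all genes tested (6.22% lower and 5.66% higher in knockout). Sdc1 (ENSMUSG00000020592, chr12:8771323-8793715, plus strand), best known from epithelia and plasma cells, had 41.2, 48.3 and 46.2 CPM among knockouts and 66.6, 53.8 and 49.9 CPM among wild types, a log2 fold change of -0.33 (SE 0.21, edgeR adjusted p = 0.518), or -0.20 without WT-596 and -0.44 without WT-795. Every knockout library was below every wild type, with mut-597 and WT-795 nearest. Epithelial and plasma cell RNA was scarce: the keratinocyte genes Krt14 and Krt15 were at 0 counts throughout, 6 keratinocyte markers summed to 8.58, 9.30 and 9.67 CPM in knockout and to 14.7, 10.8 and 9.15 CPM in wild type, and 6 plasma and B cell markers to at most 0.600 CPM. The wild types had the same order in keratinocyte markers as in Sdc1, while the knockouts did not. Both tested keratinocyte markers lay below 0 (median -0.24), but 0 of 2 did after the GC correction (median 0.064). The part of keratinocytes in the Sdc1 values was not tested. Sdc4 (ENSMUSG00000017009, chr2:164424247-164443887, minus strand), the syndecan of focal adhesions, had 51.0, 50.1 and 49.4 CPM among knockouts and 48.9, 39.1 and 48.2 CPM among wild types. Each knockout was above each wild type, with a log2 fold change of 0.14 (SE 0.21, edgeR adjusted p = 0.762). Without WT-597 the value was 0.030. The Sdc4 groups overlapped under RLE or upper-quartile scaling, with the GC correction described further on, and without mut-795, WT-597 or WT-795. Those of Sdc1 overlapped with the GC correction alone among these.

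Shares within a family do not depend on how libraries are scaled. Gpc1 and Gpc3 together made up most glypican RNA per length in every library. The Gpc1 share was between 37.1% (WT-597) and 50.6% (WT-596) and that of Gpc3 between 42.4% and 55.6%, with both extremes among wild types. Gpc4 held 5.69% ± 0.278 of glypican RNA in knockout and 6.19% ± 0.379 in wild type (SD, n = 3). Among syndecans Sdc2 held 59.4% ± 2.22 in knockout and 58.8% ± 4.91 in wild type. The Sdc4 share was 22.7%, 20.7% and 20.5% in knockout, above the 19.2%, 16.3% and 17.9% of the wild types. The group means were 21.3% ± 1.22 and 17.8% ± 1.44, and an exact two-sided permutation test of the 10 shares compared gave its lowest p here, p = 0.1, which is also the least that 3 against 3 can reach. Sdc3 held 6.50% in knockout and 8.43% in wild type, and Sdc1 between 12.3% and 13.3% in knockout and between 12.4% and 17.5% in wild type, both with overlapping groups.

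**Figure D3:**
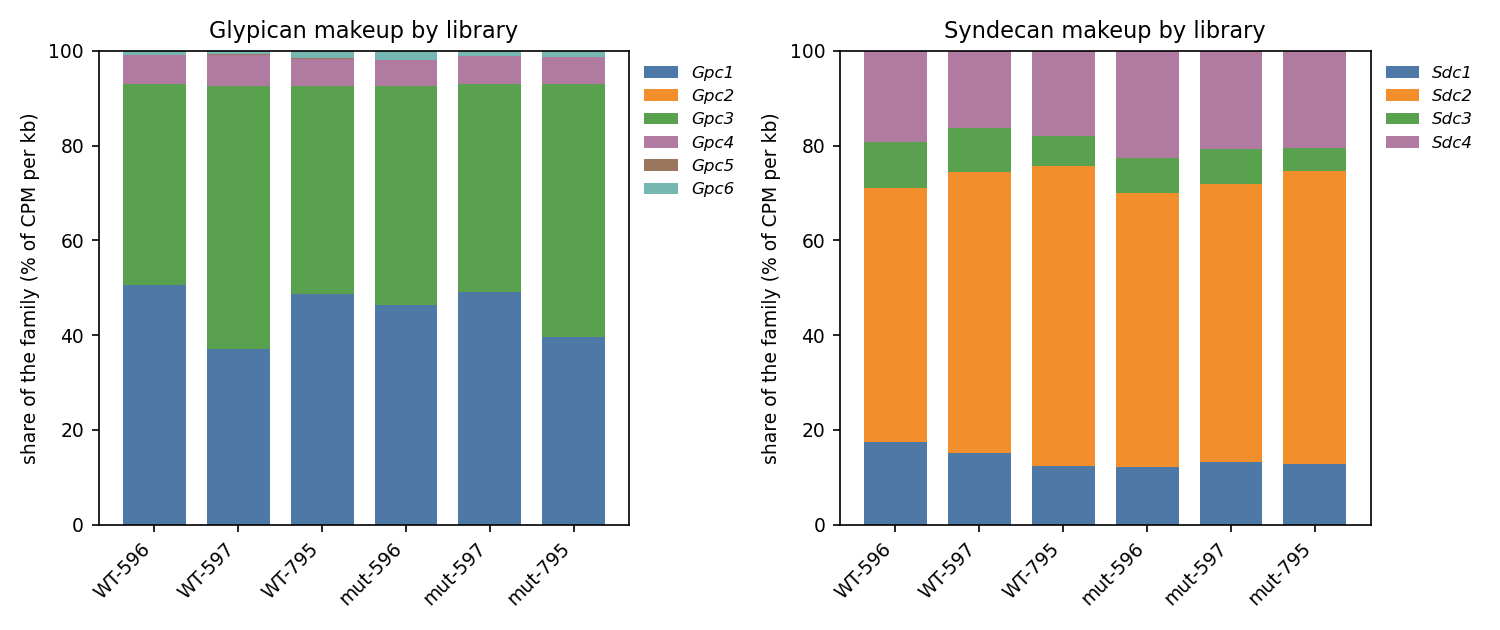
Stacked bars of each gene's share of summed CPM per kb within its family, 1 bar per library, glypicans at the left and syndecans at the right. Gpc1 and Gpc3 trade places between libraries of the same genotype, and the Sdc4 segment is between 20.5% and 22.7% in knockout and between 16.3% and 19.2% in wild type.

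Fold changes were related to the base composition of transcripts. Over all genes, fold change fell as transcript GC content rose (Spearman rho = -0.62 across 15701 genes, which share the same 6 libraries and are not independent). The libraries fell into different trends: GC-rich transcripts at 60% GC stood 0.35 and 0.42 above the mean of the 6 libraries on the log2 scale in WT-596 and WT-597, and below it in the 4 others, WT-795 included (-0.12). Across the 8 tested members Pearson's r between GC content and log2 fold change was -0.61, and 0.46 after each library's trend was removed, both given as a description. Members below 0 were found at both ends of the range: the GC-richest, Gpc1 (59.1%, -0.16) and Sdc3 (58.7%, -0.48), and also the GC-poorest, Sdc2 (41.6%, -0.09). Gpc3 (48.0%) was at the same -0.16 as Gpc1.

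With each library's GC trend removed, the order of the members changed. Gpc1 moved from -0.16 to 0.20 (SE 0.20), Sdc3 from -0.48 to -0.08 (SE 0.20) and Sdc1 from -0.33 to -0.05 (SE 0.18). Sdc2 moved from -0.09 to -0.41 (SE 0.18, edgeR adjusted p = 0.762), with an unadjusted p under 0.05. After this correction it was the only member with non-overlapping groups, at 153, 186 and 181 CPM for knockout against 225, 254 and 214 CPM for wild type. That is 1 of 8 members, beside 6.04% of genes with an unadjusted p under 0.05 and 8.99% with non-overlapping groups after the correction. Sdc4, at 49.3% GC, barely moved (0.15, SE 0.18), and its share of syndecan RNA stayed higher in each knockout, at 21.3% to 23.9% against 14.2% to 19.0%. The Sdc2 share, overlapping before, was then lower in each knockout, at 51.3%, 56.8% and 57.6% against 60.2%, 68.6% and 59.9%. Shares within a family trade off against each other, so the Sdc2 and Sdc4 shares are not separate observations. They have no background over all genes. Gpc3, Gpc4 and Gpc6 were at -0.21, -0.20 and 0.16, and no member passed the adjusted test, which 0.00637% of genes did.

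**Figure D4:**
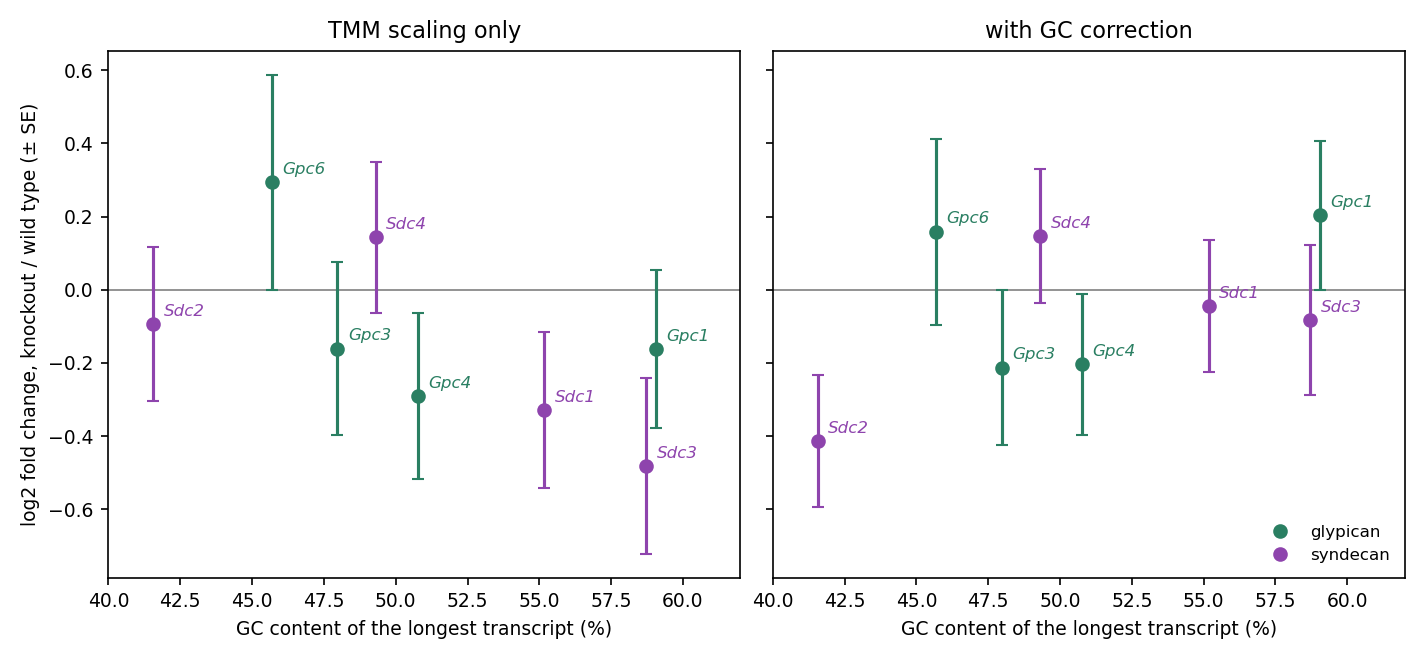
Log2 fold change (knockout over wild type, error bars ± SE) of the 8 tested members against the GC content of the longest transcript, with TMM scaling at the left and with the GC correction at the right. Gpc1 and Sdc3 move up and Sdc2 moves down between the panels, while Sdc4 stays at 0.14 and 0.15.

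Genes that build, edit or break down heparan sulfate, cleave its carriers, bind syndecan tails, encode other proteoglycans or act in hedgehog reception were followed as 7 lists with 93 genes in all, of which 78 were tested. None passed the edgeR test or DESeq2, and 44 of 78 lay below 0, or 33 of 78 with the GC correction. Each list and each gene named for its small unadjusted p is therefore given with its corrected value too. Chain synthesis genes had 10 of 15 below 0 with a median of -0.02 (corrected, 6 of 15 and 0.08). Xylt1, which starts the chain by adding xylose to the core protein, averaged 22.2 ± 4.73 CPM (SD, n = 3) among knockouts and 14.2 ± 3.28 CPM among wild types. Its log2 fold change was 0.65 (SE 0.25, edgeR adjusted p = 0.459), and 0.72 corrected. Every knockout was above every wild type, with mut-597 (18.7 CPM) and WT-795 (17.9 CPM) nearest. Groups did not overlap in 11.9% of all genes, and Xylt1 was named for its small unadjusted p, so this separation adds no evidence. Ext2, a subunit of the chain polymerase, and Extl3, which starts heparan sulfate on the linker, were at -0.48 and -0.30, corrected to -0.26 and -0.055.

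Chain-modifying enzymes had 7 of 10 below 0 with a median of -0.13, which turned sign with the correction (3 of 10 and 0.09). Glce, the epimerase that makes iduronic acid, was at 0.54 (SE 0.24) and the 6-O-sulfotransferase genes Hs6st1 and Hs6st2 at -0.65 (SE 0.29) and 0.66 (SE 0.31), so members of 1 enzyme family lay on opposite sides of 0. The corrected values were 0.32, -0.28 and 0.52. Of 8 genes for trimming and breakdown 5 lay below 0 with a median of -0.42, among them the lysosomal enzymes Idua (-0.92) and Naglu (-0.63). With the GC correction these were at -0.67 and -0.21, and 7 of 8 genes of the list lay below 0 with a median of -0.16.

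Among genes for cleavage and release, 5 of 9 were below 0 with a median of -0.20, and 3 of 9 with a median of 0.12 after the correction. The convertase gene Pcsk6 was at -0.62, the gelatinase Mmp9 at -0.52 and Adam17, a syndecan sheddase, at 0.44, corrected to -0.30, -0.24 and 0.26. Cytoplasmic partners of syndecans had 4 of 9 below 0 (median 0.14), or 3 of 9 corrected (median 0.12): Sdcbp, which encodes syntenin, was at 0.47 (SE 0.26), Cask at 0.39 and Gipc1, a PDZ protein, at -0.59, corrected to 0.16, 0.29 and -0.14. Other proteoglycans had 6 of 11 below 0 (median -0.04, corrected -0.11 with the same count), and the basement membrane genes Hspg2 (perlecan) and Col18a1 were at -0.58 (SE 0.24) and -0.60 (SE 0.26), beside -0.88 for the testican gene Spock2. After the GC correction Hspg2, Col18a1 and Spock2 were at -0.17, -0.16 and -0.56. In the hedgehog list, whose ligand Gpc3 binds, 7 of 16 were below 0 with a median of 0.03 (corrected, 5 of 16 and 0.22), and the co-receptor Gas1, the ligand-releasing Scube2 and the antagonist Hhip were at -0.45, 0.51 and 0.38, corrected to -0.045, 0.65 and 0.046.

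WT-795 resembled the knockouts more than its own group across all genes: its log2 CPM correlated at 0.968 to 0.974 with the knockouts and at 0.929 and 0.948 with the other wild types, a correlation across genes. Without it 9.62% of all genes passed the adjusted test and 0 of 8 members did. An unadjusted p under 0.05 was reached by 29.8% of genes and by 1 member. That was Sdc3, at -0.64 (SE 0.23, edgeR adjusted p = 0.0812). Of the 78 chain and partner genes 6 passed there, beside the 9.62% of all genes. Among them were Hs6st2 and Adam10 (a sheddase), higher at 1.04 and 0.70, and Pcsk6, Spock2 and Gipc1, lower at -0.81, -1.13 and -0.84. WT-795 was singled out for its likeness to the knockouts, and such an omission can itself raise the number of calls. The wild types left, WT-596 and WT-597, were the libraries with GC-rich transcripts above the mean. The GC correction was not run without WT-795. With all libraries it gave 0.52 for Hs6st2, -0.30 for Pcsk6, -0.56 for Spock2 and -0.14 for Gipc1. Adam10 is named because it passed there, after its value was seen. Over all libraries it was at 0.37, and its GC-corrected value is not given here.

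Fbn1 itself had 45 to 76 counts per knockout library and 458 to 1255 per wild type, or 7.96 ± 1.81 and 89.1 ± 28.1 CPM (SD, n = 3). Total counts were between 7209217 and 10316017 per library. The 10 perichondrium and fibroblast markers were all present and summed to between 36365 and 38721 CPM. Tendon and ligament markers, the usual domain of scleraxis, summed to 560 to 679 CPM in knockout and 681 to 919 CPM in wild type. Of 6, 5 lay below 0 (median -0.29) and 3 had an unadjusted edgeR p under 0.05. After the GC correction 5 of 6 lay below 0 (median -0.25) and 1 had such a p. Over all genes tested that share was 10.5%, and 6.04% after the correction. Osteoblast markers lay below 0 in 6 of 6 (median -0.30), or 5 of 6 after the GC correction (median -0.25). They summed to 2025, 3105 and 3087 CPM in knockout and 3107, 2623 and 3106 CPM in wild type, with overlapping groups. Schwann cell markers had the largest median of the 12 marker lists with tested genes, 1.24, with 5 of 6 above 0 and 4 at an unadjusted p under 0.05, or 1.17 and 3 after the GC correction. Their sums overlapped, at 322, 310 and 206 CPM in knockout and 209 to 224 CPM in wild type. Chondrocyte markers summed to between 2928 and 3000 CPM in knockout and between 2027 and 3303 CPM in wild type. No marker passed the test, and the part of these cell types in the members' values was not tested beyond the muscle and chondrocyte covariates.

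**Figure D5:**
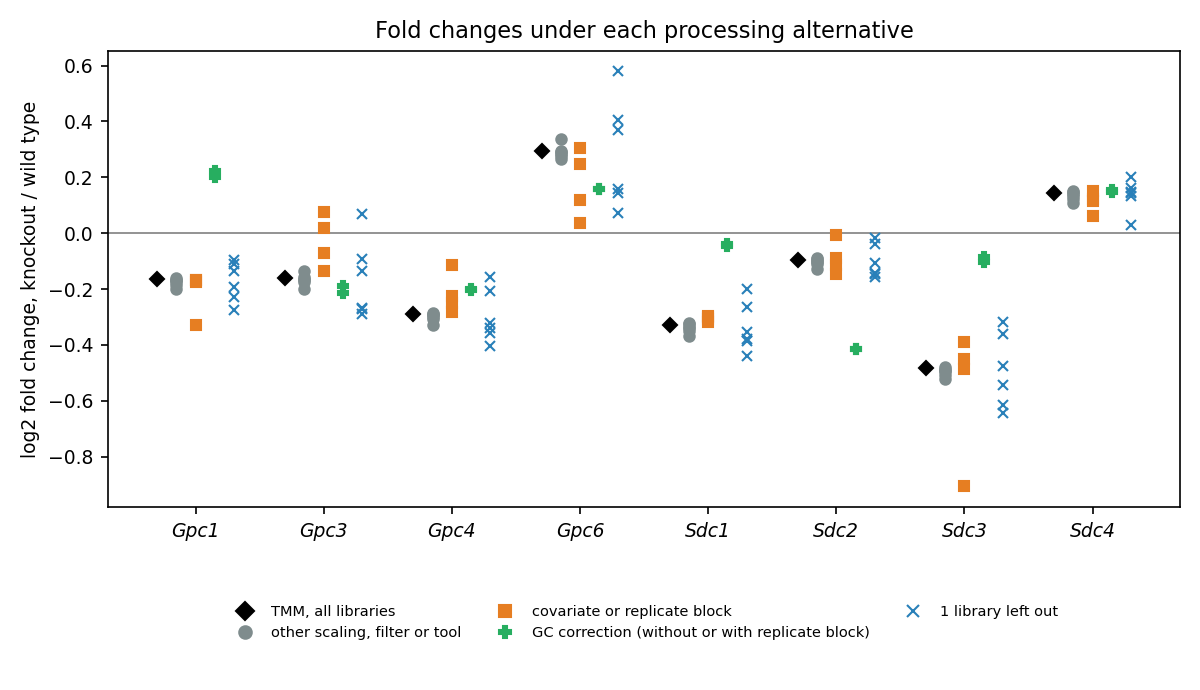
Log2 fold change of each tested member (knockout over wild type) with TMM scaling and all libraries, and under 18 alternatives grouped by kind. Gpc3 crosses 0 with the sex or muscle covariate or without WT-597, Gpc1 crosses it with the GC correction, and the 6 other members keep their side of 0.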

How the data were processed

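RNA sequencing measured gene expression in 6 perichondrium libraries, 3 per group, grouped by title. Per the labels' protocols, a Qiagen RNeasy micro kit and SMART-Seq v4 low-input Nextera XT libraries were used. The authors deposited raw gene counts, under column names of coordinate-sorted alignments per the file headers. The build GRCm38.p6 and DESeq2 are named in the submitters' processing notes, while no source used here gives the handling of strand or of multiple matches. For members only, the authors' deposited table of log2 fold changes was searched.

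Symbols, exon lengths and GC content came from GENCODE M21, which named 55450 identifiers. The test was edgeR 4.0.16 in R 4.3.3 (glmQLFit, glmQLFTest) with TMM scaling, filterByExpr and a threshold of 0.05 on the adjusted p, two-sided. The common biological coefficient of variation was 0.249. CPM used TMM-scaled totals of the filtered genes, and group overlap used log2 CPM with a prior count of 2. The GC correction entered each library's lowess trend on GC content (span 0.3) as an offset. Alternatives were RLE and upper-quartile scaling, other filters, DESeq2 1.42.0, limma-voom (limma 3.58.1), a replicate block, covariates and leaving out each library. Reads carry no molecular identifiers, so limits for counts of 0 cover counting error only. The members and gene lists were chosen with earlier results of these data known. Named genes were all members, Fbn1, Xist and Ddx3y, and from each pathway list the 3 with the smallest unadjusted p, of which 1 gene is not reported here. Xist did not enter the fold-change test, since its counts came from too few libraries for the filter.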

Additional observations from a re-analysis of the deposited data

How the results depend on the processing

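Over 18 alternatives for each of 8 tested members, 139 of 144 values kept their direction and 0 passed the adjusted threshold, with a lowest edgeR adjusted p of 0.0812. The reversed values were Gpc1 at 0.20 with the GC correction and 0.22 with the replicate block and GC correction, and Gpc3 at 0.019 with the sex covariate, 0.074 with the muscle covariate and 0.067 without WT-597 (from -0.29 to 0.067 with 1 library left out). The cause was not tested. Members with an unadjusted p under 0.05 numbered 0, and 1 with upper-quartile scaling, without the filter, with the sex covariate or without WT-795 (Sdc3 in each) and 1 with the GC correction (Sdc2). Of all genes, 1761 of 15712 had such a p with upper-quartile scaling and 2948 of 31958 without the filter. Without WT-795 it was 4690 of 15712, and with the GC correction 948 of 15701. Members with non-overlapping groups numbered 2, and 1 with RLE, upper-quartile scaling or the GC correction. Over all genes 11.7% did not overlap with RLE or upper-quartile scaling, and 8.99% with the GC correction. Genes past the threshold numbered 1 (Fbn1), 270 without the filter, 4 with DESeq2, 4 with the replicate block and GC correction, 2 with the chondrocyte covariate and 0 with the sex covariate, where 490 genes had an unadjusted p under 0.05 by edgeR. With 1 library left out, genes past the threshold ranged from 1 to 1512 (9 without mut-795, 1512 without WT-795), members with non-overlapping groups from 1 to 5 (5 without mut-597, where 23.6% of all genes did not overlap, and 4 without WT-795, where 47.8% did not), members with an unadjusted p under 0.05 from 0 to 1 and pathway genes past the threshold from 0 to 6. The replicate block alone changed no call for a member. Same-numbered libraries deviated together in 1 of 3 pairs (correlations of -0.18 for mut-596 with WT-596, 0.24 for mut-597 with WT-597 and -0.20 for mut-795 with WT-795). The largest correlation, 0.38, was for mut-596 with WT-795, which differ in number. Deviations were taken from means of 3 libraries, so these correlations cannot decide whether the numbers mark pairs. The libraries were not treated as pairs because the meaning of the numbers is not given. Whether the numbers mark a shared litter or day is unknown. The filter meant to be stricter kept 15730 genes and so tested no less. The order of levels per length held for all 10 members with RLE and upper-quartile scaling and for 8 with the longest transcript as length. Gpc2 and Gpc5, at 0 to 3 counts per library, could not be tested at this depth.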
